A study of Rattus norvegicus with 12 samples.

Results

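The 29 genes described here are astrocyte genes, chosen by symbol from what is known of the cell type: astrocyte markers, glutamate and bicarbonate transporters, gap junction genes and genes of the reactive state. All 29 are among the 26949 genes of the RNA table, and all 29 passed the low-count filter that left 17935 genes for testing. The tissue was the hippocampus of male rats kept for 4 weeks in normoxia (control, 3 RNA libraries) or under chronic intermittent hypoxia (CIH, 3 RNA libraries), in which oxygen is lowered and restored over and over, as in sleep apnoea. The labels give no strain, age, genotype or oxygen cycle. Nor do they tie each library to an animal, so a p-value here reflects the spread among libraries, which may be technical. The comparison asks how hippocampal transcripts differ between CIH and normoxia.

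Astrocytes are the glia that wrap synapses and blood vessels. They clear glutamate and potassium after synaptic activity, convert glutamate to glutamine for return to neurons, pass ions and metabolites to each other through gap junctions, move water and bicarbonate at their vascular endfeet, and secrete lipid-carrying proteins. After injury many of them become reactive and make more of the intermediate filaments GFAP and vimentin.

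In these libraries no astrocyte gene passed the test between CIH and control. With edgeR's quasi-likelihood test and Benjamini-Hochberg adjustment over all genes, 0 of 29 were called (adjusted p = 1.00 for each), against 0% of all tested genes; at an unadjusted p under 0.05 there was 1 astrocyte gene, Slc4a4, against 1.78% of all genes, and DESeq2 called 0 of 29, against 0.0502% of all genes. The log2 fold changes, CIH over control, ran from -0.27 (Slc4a4) to 0.26 (Ndrg2), with 15 genes above 0 and 14 below it. Their median was 0.06, beside 0.00 for all tested genes, of which 50.6% were above 0. The sodium bicarbonate cotransporter gene Slc4a4 was the only member whose CIH libraries did not overlap the controls, and all 3 were below them. Of all tested genes, 2.65% lay below without overlap and 3.05% above, 1022 of 17935 in either direction. The 95% interval of the log2 fold change lay within 1 log2 unit of 0 for 27 of 29 astrocyte genes, as it did for 74.5% of all genes. The exceptions were Gfap (-0.89 to 1.03) and Vim (-0.78 to 1.01).

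RNA totals ran from 17170943 to 21941173 estimated counts per library, and each pair of libraries differed by more than sampling noise. The smallest chi-square was 7.08 per degree of freedom, between control replicate 1 and CIH replicate 3, a pair across the groups. Control replicate 1 stood at 53.8 and 48.4 from the other controls, and CIH replicate 3 at 60.1 and 27.5 from the other CIH libraries. Control replicates 2 and 3 stood at 13.2 from each other. CIH replicate 1 stood apart in the wider table: it held the highest value of 25.7% of all tested genes and the lowest value of 25.6%, where each other library held 13.3% to 16.3%.

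As RNA, the astrocyte genes together made up 1.33% to 1.46% of the deposited TPM (a level scaled by transcript length and by depth) in control and 1.30% to 1.56% in CIH. Apoe, the lipid carrier that astrocytes secrete, supplied 27.1% to 35.1% of that sum. By mean TPM over the 6 libraries the order was led by Apoe at 4413, the glutamate transporter gene Slc1a2 at 1978, the secreted matrix protein gene Sparcl1 at 1327 and the glutamine synthetase gene Glul at 939.7, and each of these stood above the next in all 6 libraries. The next genes, S100b at 788.8, Clu at 788.6 and Ndrg2 at 778.1, did not hold a fixed order over the libraries. At the other end stood Fabp7 at 40.8 and the folate enzyme gene Aldh1l1 at 14.1, and in TPM Fabp7 was above Aldh1l1 in all 6 libraries. Of the 28 neighbouring pairs in the order, 8 kept their order in every library; the others crossed in at least 1. The defining astrocyte markers Gfap, Aqp4, Aldh1l1, S100b and Slc1a3 were thus all present, from 10.6 TPM for Aldh1l1 in CIH replicate 3 to 901.6 TPM for S100b in CIH replicate 1.

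**Figure D1:**
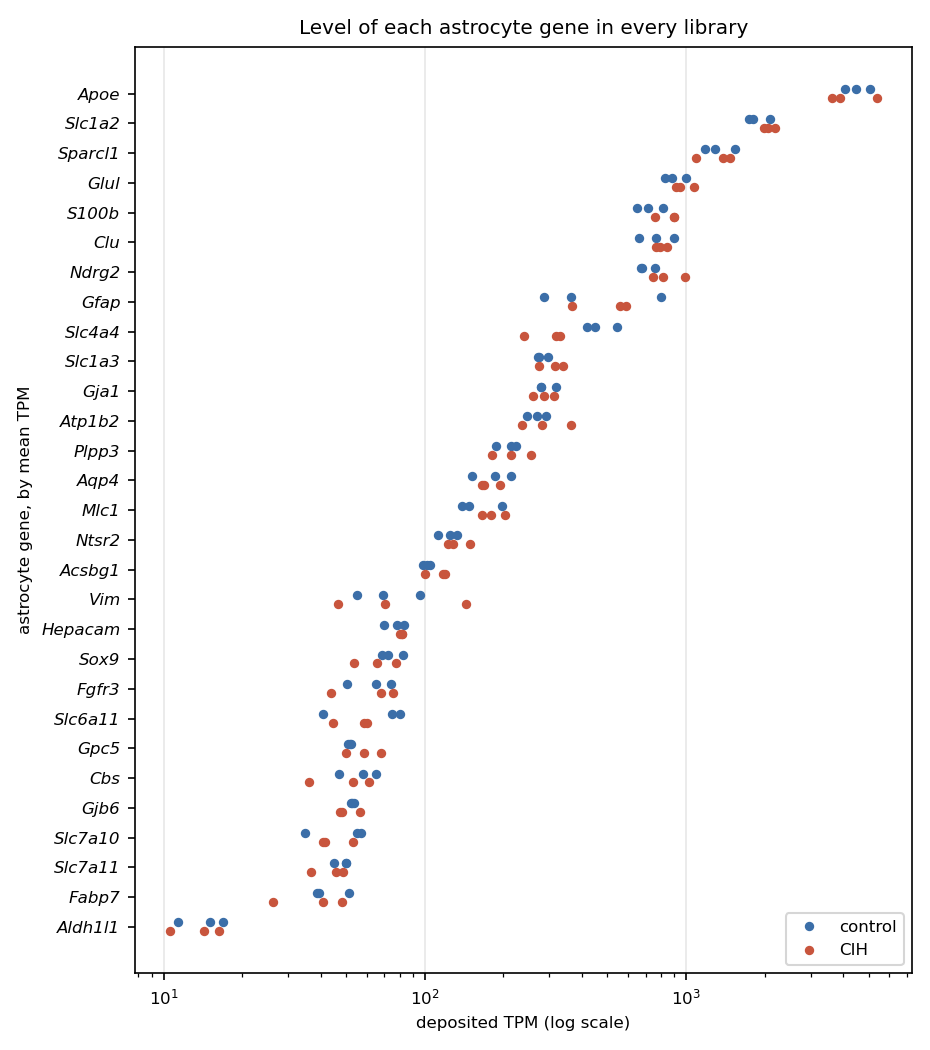
Deposited TPM of each of the 29 astrocyte genes (log axis) in the 3 control and 3 CIH libraries, 1 point per library, ordered by the mean. Levels span from Aldh1l1 at a mean of 14.1 TPM to Apoe at a mean of 4413 TPM, and the groups overlap for every gene but Slc4a4.

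A level per length depends on the transcript length behind it. Counts divided by FPKM (the deposited level scaled by length and depth) and by the library total give the mean transcript length that the deposited values imply for a gene. For Slc1a2 this length was 719 to 736 bases, and for the related transporter gene Slc1a3 it was 3520 to 3605 bases. On the scale of CPM (counts scaled by depth and not by length) Slc1a2 had a mean of 737.4 in control and Slc1a3 one of 535.2, whereas their mean TPM in control were 1881 and 280.5. The distance between these genes in the TPM order therefore rests largely on the lengths used.

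Among the transporters of ions and water, Slc4a4 (gene ID 84484) encodes the electrogenic sodium bicarbonate cotransporter NBCe1, which moves bicarbonate across the astrocyte membrane and so takes part in the control of brain pH. Its CPM values were 405.8, 390.4 and 392.6 in control replicates 1 to 3 and 327.7, 318.0 and 338.4 in CIH replicates 1 to 3. Every CIH library was below every control library, and the spread within each group was small: control had a mean of 396.3 ± 8.34 CPM and CIH one of 328.0 ± 10.2 CPM (SD, n = 3 each). The log2 fold change was -0.27 (SE 0.10, 95% interval -0.51 to -0.04), with an adjusted p of 1.00 in edgeR's test. Leaving out any 1 library gave -0.30 to -0.25, but with groups that do not overlap the direction has little room to turn.

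On the TPM scale the same gene stood at 416.4, 542.7 and 448.4 in control and at 239.3, 329.0 and 318.9 in CIH. These values did not overlap either, and limma on log2(TPM + 1) gave a log2 difference of -0.67 (adjusted p = 1.00), beside -0.27 in counts. The implied transcript length is computed from the 2 kinds of values, so it holds the distance between the scales by construction. It was 1799, 1329 and 1655 bases in control and 2565, 1756 and 1990 bases in CIH. CIH replicate 1 had the longest value, and CIH replicate 2 lay below control replicate 1, so the groups overlapped. In a limma fit of log2 length over 14420 genes with at least 1 FPKM in every library, chosen after these values were seen, Slc4a4 had a difference of 0.39 (SE 0.19, adjusted p = 1.00). No gene of that fit passed the threshold; 470 had an unadjusted p under 0.05. The spread of the Slc4a4 length over the 6 libraries was larger than that of 98.0% of these genes. Among the 29 astrocyte genes, 24 had a length difference under 0.05 log2 units in size; beside Slc4a4, Vim (-0.11), Slc7a10 (-0.12), Sox9 (0.10) and Gpc5 (-0.06) were larger. The CIH lengths of Vim, 1359 to 1480 bases, were all below the control lengths, 1491 to 1563 bases, which was so for 2.83% of the genes in that fit (adjusted p = 1.00).

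**Figure D2:**
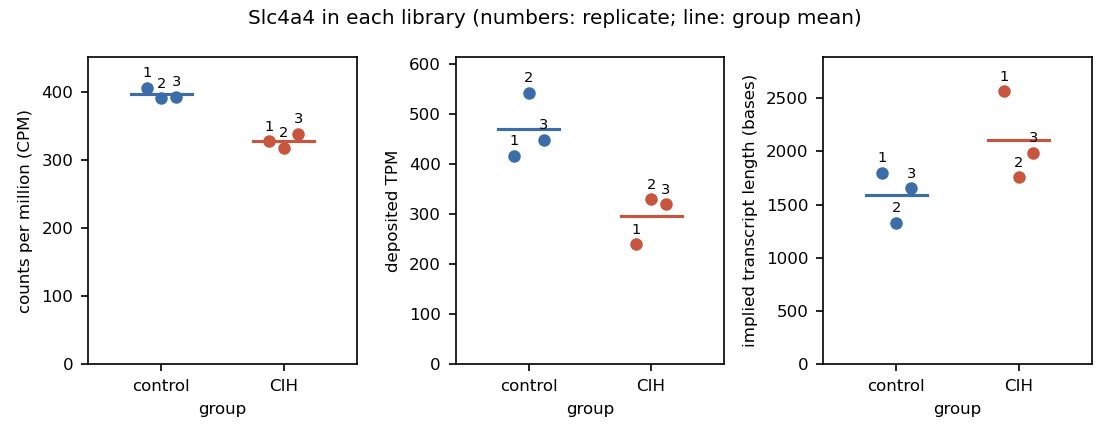
Slc4a4 in each library on 3 scales, from left to right CPM, deposited TPM and the transcript length implied by counts and FPKM in bases; numbers mark the replicate and lines the group mean, and every axis starts at 0. The groups are apart in CPM and in TPM, and overlap in implied length.

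The sequence around the start of Slc4a4 is shown because it was the member with no overlap, beside that of Gfap, the member with the widest spread over libraries, and of Slc1a2, the transporter gene with the highest TPM. The windows come from RefSeq, build GRCr8, and hold 250 bases before and 50 after the start; 27 of the 29 members had at least 1 window. They are Slc4a4 at chr14:19468233-19468532 (minus strand), Gfap at chr10:88361612-88361911 (minus strand) and the upstream of 2 Slc1a2 windows at chr3:109459859-109460158 (plus strand), each printed 5′ to 3′ on the gene's strand. Capitals mark TTGGC, the core of a nuclear factor I site, and ACGTG or GCGTG, the core of a hypoxia response element, on either strand.
Slc4a4: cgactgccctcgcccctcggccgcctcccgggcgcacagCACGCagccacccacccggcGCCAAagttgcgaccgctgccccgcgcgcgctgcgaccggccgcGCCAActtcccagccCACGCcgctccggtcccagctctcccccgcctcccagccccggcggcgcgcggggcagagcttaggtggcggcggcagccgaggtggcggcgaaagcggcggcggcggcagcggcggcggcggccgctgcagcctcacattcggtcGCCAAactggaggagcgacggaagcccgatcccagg
Gfap: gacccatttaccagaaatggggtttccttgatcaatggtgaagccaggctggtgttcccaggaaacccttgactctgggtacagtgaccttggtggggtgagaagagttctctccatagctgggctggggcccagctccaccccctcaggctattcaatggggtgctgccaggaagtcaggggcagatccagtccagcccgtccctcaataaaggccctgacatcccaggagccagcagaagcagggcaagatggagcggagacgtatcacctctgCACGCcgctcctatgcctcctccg
Slc1a2: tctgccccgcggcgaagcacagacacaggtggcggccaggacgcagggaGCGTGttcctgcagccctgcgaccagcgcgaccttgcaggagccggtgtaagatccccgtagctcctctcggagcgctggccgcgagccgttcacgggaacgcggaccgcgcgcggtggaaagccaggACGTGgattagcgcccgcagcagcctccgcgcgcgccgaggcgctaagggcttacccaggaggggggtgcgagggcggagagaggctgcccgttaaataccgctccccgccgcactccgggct

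The Slc4a4 window held TTGGC at 3 places and GCGTG at 2, all read on the opposite strand, so they appear as GCCAA and CACGC. The Gfap window held 1 GCGTG and no TTGGC, and the Slc1a2 window held 1 ACGTG and 1 GCGTG. Over all windows of the members, TTGGC was found in 24 of 37 (64.9%), beside 45.8% of 33469 windows of the same length in the table. ACGTG was found in 7 of 37 (18.9%, beside 19.3% of all windows), GCGTG in 9 (24.3%, beside 29.7%) and TTCNNNGAA, the core of a STAT site, in 2 (5.41%, beside 8.87%). Both strands were searched and matches were allowed to overlap. A match is a run of letters, not a measured site.

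Aqp4 (gene ID 25293), the water channel of the vascular endfeet, stood at 554.9, 392.9 and 470.2 CPM in control and 428.5, 435.9 and 493.7 CPM in CIH. Control replicate 1 was highest and control replicate 2 lowest, so the CIH libraries lay within the control range; the log2 fold change was -0.06 (SE 0.16). Mlc1, a membrane protein of perivascular astrocytes, stood at 0.20 (SE 0.14), and Hepacam, the adhesion molecule that partners it, at 0.08 (SE 0.11). Their libraries ran from 154.6 to 215.6 CPM and from 111.8 to 136.5 CPM, with the lowest value of both in control replicate 3. Atp1b2, the glial sodium pump beta subunit, stood at 0.13 (SE 0.17), with CIH replicate 1 highest at 535.2 CPM and CIH replicate 2 lowest at 359.2 CPM. In this group 3 of 5 genes were above 0 and 2 below, and none passed the edgeR test.

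The 3 genes of glutamate clearance were all above 0. Slc1a2 (gene ID 29482), which encodes the main forebrain glutamate transporter GLT-1, stood at 815.6, 695.2 and 701.3 CPM in control and 846.0, 825.0 and 766.4 CPM in CIH. CIH replicates 1 and 2 were above every control, and CIH replicate 3 was below control replicate 1. Its log2 fold change was 0.14 (SE 0.13, 95% interval -0.16 to 0.44). Slc1a3 (gene ID 29483), the glutamate transporter GLAST, stood at 536.3, 516.5 and 552.6 CPM in control and 593.6, 665.4 and 521.8 CPM in CIH. The log2 fold change was 0.15 (SE 0.13), and here too CIH replicate 3 fell within the control range. Glul, whose enzyme turns glutamate into glutamine, ran from 1006 CPM in control replicate 2 to 1320 CPM in CIH replicate 2 and stood at 0.12 (SE 0.14). By edgeR none was called (adjusted p = 1.00 for each), and their intervals leave room for a log2 change of up to 0.46 upward.

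The filament genes were the most variable members. Gfap (gene ID 24387), the astrocyte intermediate filament, stood at 989.3, 353.2 and 440.5 CPM in control and 446.0, 697.8 and 727.2 CPM in CIH. Its highest and lowest libraries were both controls, 2.80-fold apart, and all CIH libraries lay between them. Its spread in log2 CPM over the 6 libraries exceeded that of 86.6% of all tested genes. The log2 fold change was 0.07 (SE 0.40) and reached 0.65 when control replicate 1 was left out.

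Vim (gene ID 81818), which encodes vimentin and is also made by vessel, meningeal and progenitor cells, had another order of libraries than Gfap. It was highest in CIH replicate 1 at 104.1 CPM and lowest in CIH replicate 2 at 37.9 CPM, while the controls ran from 46.3 to 77.5 CPM; its log2 fold change was 0.11 (SE 0.38). Markers of meningeal fibroblasts moved with it in these 2 libraries: their mean log2 deviation was 0.93 in CIH replicate 1 and -0.98 in CIH replicate 2, against 0.02 to 0.16 in control. Their summed level ran from 57.7 to 231.1 CPM in CIH and from 109.9 to 140.2 CPM in control, over 7 of 7 listed markers. The mean log2 deviation of endothelial and pericyte markers (0.46) and of progenitor markers (0.23) was also highest in CIH replicate 1. In CIH replicate 2 these were 0.005 and -0.08. The part of these cell types in the Vim values was not tested. Without CIH replicate 1 Vim stood at -0.40, and without CIH replicate 2 at 0.39.

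S100b (gene ID 25742), a calcium-binding protein gene, stood at 554.1, 443.8 and 480.4 CPM in control and 608.2, 627.0 and 511.4 CPM in CIH. CIH replicates 1 and 2 were above every control and CIH replicate 3 was not. The log2 fold change was 0.24 (SE 0.14, edgeR adjusted p = 1.00).

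Both gap junction genes were near 0. Gja1 (gene ID 24392), which encodes connexin 43, stood at 438.9, 499.5 and 431.6 CPM in control and 486.5, 461.0 and 402.2 CPM in CIH. The log2 fold change was -0.02 (SE 0.13, 95% interval -0.32 to 0.28). Gjb6, which encodes connexin 30, ran from 45.1 to 54.1 CPM and stood at -0.10 (SE 0.10). Its control libraries were within 1.02-fold of each other. Gjb6 and Gja1 were among the steadier genes of the table, their spread in log2 CPM exceeding that of 10.2% and 14.9% of all tested genes.

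The 3 other amino acid transporters were all below 0, with none past the edgeR test. Slc6a11, the GABA transporter GAT-3, stood at -0.26 (SE 0.27), Slc7a10, which carries small neutral amino acids such as D-serine, at -0.22 (SE 0.27), and Slc7a11, the cystine and glutamate exchanger, at -0.15 (SE 0.13). Slc6a11 ranged from 37.6 CPM in control replicate 1 to 74.4 CPM in control replicate 2, so the extremes again were both controls, and Slc7a10 did the same, from 20.6 to 35.9 CPM in those libraries. In both genes the highest libraries were control replicates 2 and 3 and CIH replicate 2. The same 3 libraries were highest for Aldh1l1 and for Cbs, the transsulfuration enzyme gene. These 4 genes were the only members with that set of 3 highest libraries, which 11.5% of all tested genes shared. A grouping of this kind, read from the values, is a description.

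Metabolic genes went both ways. Ndrg2 (gene ID 171114), an abundant astrocyte gene of the N-myc downstream-regulated family, stood at 579.0, 645.7 and 559.2 CPM in control and 815.8, 718.9 and 608.6 CPM in CIH. CIH replicates 1 and 2 were above all controls, and CIH replicate 3 was below control replicate 2. Its log2 fold change of 0.26 (SE 0.15, 95% interval -0.09 to 0.62, edgeR adjusted p = 1.00) was the highest among the members, and it stood at 0.15 without CIH replicate 1. The acyl-CoA synthetase gene Acsbg1 stood at 0.16 (SE 0.11) and the lipid phosphatase gene Plpp3 at 0.07 (SE 0.16). Cbs stood at -0.16 (SE 0.22), Fabp7, a fatty acid binding protein gene of astrocytes and progenitors, at -0.16 (SE 0.25), and Aldh1l1 at -0.07 (SE 0.22). Fabp7 had the fewest counts of the members, 95 to 210 per library, with its lowest value in CIH replicate 1.

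**Figure D3:**
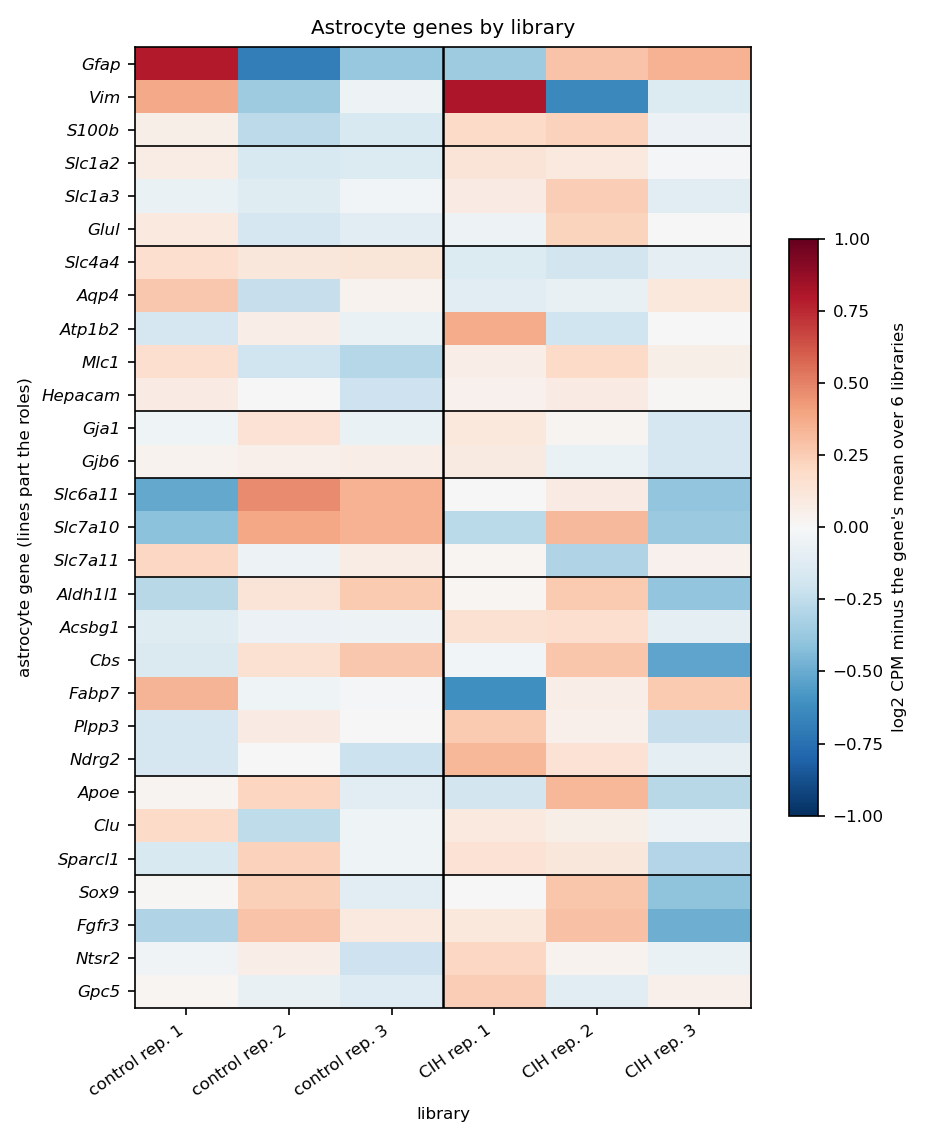
Log2 CPM of each astrocyte gene minus its mean over the 6 libraries (colour scale, red above and blue below), genes in rows by role and libraries in columns with a line between control and CIH. Gfap in control replicate 1 and Vim in CIH replicate 1 are the strongest red cells, and only the Slc4a4 row is red in all controls and blue in all CIH libraries.

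The secreted protein genes spanned both groups. Apoe (gene ID 25728) stood at 2218, 2528 and 2007 CPM in control and 1921, 2741 and 1791 CPM in CIH. CIH replicate 2 was the highest of the 6 and CIH replicate 3 the lowest, and the log2 fold change was -0.07 (SE 0.21). Sparcl1 (gene ID 25434) stood at 1564, 2032 and 1680 CPM in control and 1920, 1873 and 1418 CPM in CIH, and its log2 fold change was -0.02 (SE 0.18). Clu, which encodes the chaperone clusterin, ran from 533.2 CPM in control replicate 2 to 727.8 CPM in control replicate 1 and stood at 0.06 (SE 0.15).

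Sox9, the transcription factor gene of the astrocyte lineage, stood at -0.07 (SE 0.19) and Fgfr3, a fibroblast growth factor receptor gene, at -0.04 (SE 0.24). Both were highest in CIH replicate 2 and lowest in CIH replicate 3, at 97.6 and 60.9 CPM for Sox9 and 143.9 and 83.4 CPM for Fgfr3. Ntsr2, the low-affinity neurotensin receptor gene, stood at 0.12 (SE 0.12) and Gpc5, a heparan sulfate proteoglycan gene, at 0.13 (SE 0.12). All 4 missed the threshold in edgeR.

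**Figure D4:**
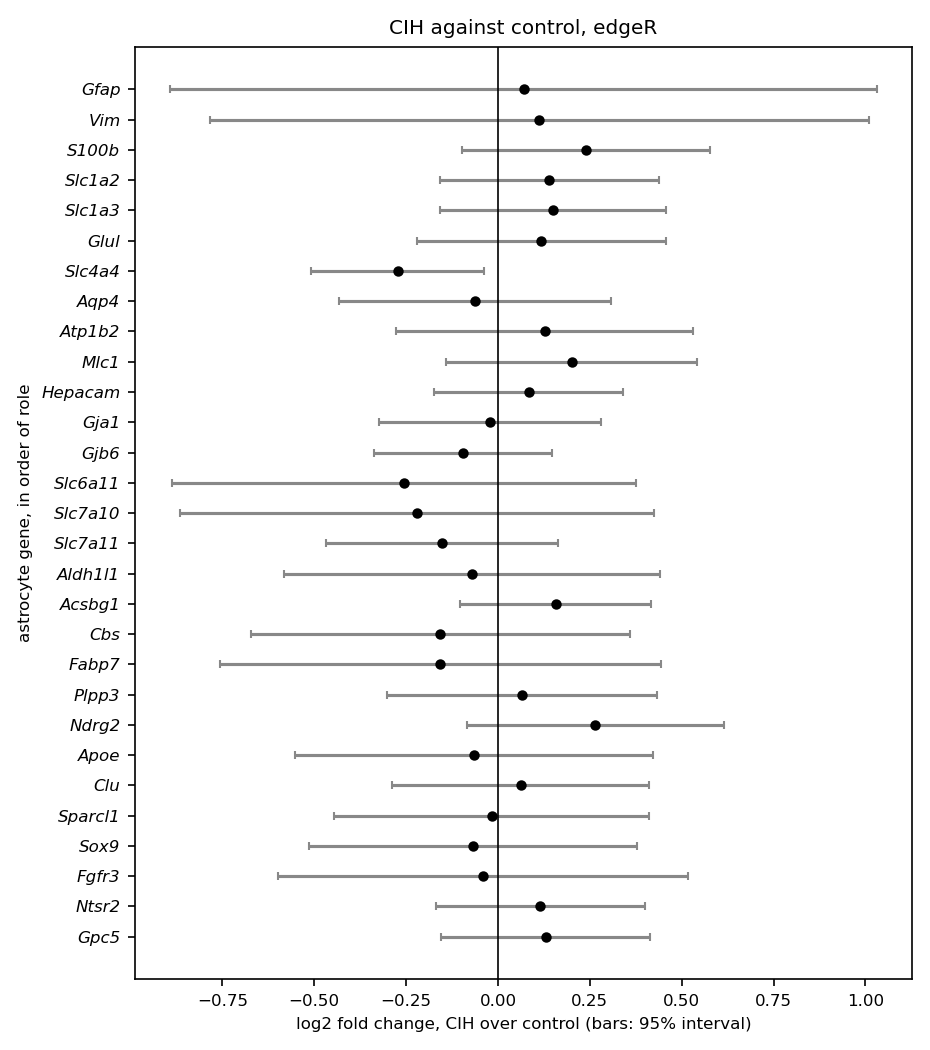
Log2 fold change, CIH over control, of each astrocyte gene from edgeR (points) with its 95% interval (bars), in order of role. The points run from -0.27 to 0.26, the interval of Slc4a4 alone leaves out 0, and those of Gfap and Vim are the widest.

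Across libraries the members shifted within the CIH group more than between the groups. The mean log2 deviation of the 29 genes was 0.01, 0.00 and -0.03 in control replicates 1 to 3 and 0.06, 0.08 and -0.12 in CIH replicates 1 to 3. CIH replicate 2 held the highest value of 10 members and CIH replicate 1 that of 8, whereas CIH replicate 3 was highest for 0 and lowest for 9. Without CIH replicate 1 the median log2 fold change of the members was -0.03 and without CIH replicate 2 it was -0.02, so its direction rests on those libraries. Without CIH replicate 3 it was 0.10, with 21 of 29 genes above 0. In bulk tissue, fewer astrocytes and less RNA per astrocyte cannot be told apart.

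Markers of other cell types were measured in the same libraries. Neuronal markers (10 of 10 tested) summed to 7009 to 7895 CPM in control and 6797 to 8721 CPM in CIH, and microglial markers (10 of 10) to 242.9 to 262.9 and 240.0 to 301.6 CPM, so both overlapped. Oligodendrocyte markers (10 of 10) summed to 3193 to 7719 CPM in control and 5066 to 7838 CPM in CIH. Control replicate 1 and CIH replicate 3 had the highest oligodendrocyte scores, at 0.55 and 0.63, and Gfap was highest in these same libraries. They also had the highest dentate granule scores, at 0.81 and 0.42, and were the pair with the lowest chi-square over all genes. These relations were not tested. Endothelial and pericyte markers (10 of 10) summed to 313.4 to 333.5 CPM in control and 354.3 to 481.2 CPM in CIH and so did not overlap. Among these markers, 5 were above all controls in every CIH library, as were 3.05% of all genes. Their score was highest in CIH replicate 1, at 0.46. That library held the highest value of 25.7% of all tested genes and of 8 members. These members were Vim, Slc1a2, Atp1b2, Gjb6, Plpp3, Ndrg2, Ntsr2 and Gpc5. Whether the endothelial score bears on them was not tested. Dentate granule markers (6 of 8 tested) summed to 361.1 to 868.4 CPM in control and 191.2 to 708.7 CPM in CIH, lowest in CIH replicate 1, with a score of -1.23. Their part in the astrocyte values was not tested. Choroid plexus markers (6 of 8) summed to at most 20.02 CPM and ependymal markers (6 of 7) to at most 33.9 CPM in any library. Markers of oligodendrocyte precursors (8 of 8) summed to 488.9 to 520.4 CPM in control and 456.8 to 538.5 CPM in CIH, those of neural stem and progenitor cells (7 of 8) to 138.5 to 153.1 and 118.1 to 145.7 CPM, and erythroid markers (5 of 6) to 63.4 to 97.9 and 54.5 to 122.6 CPM. No listed marker was at 0 in every library.

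**Figure D5:**
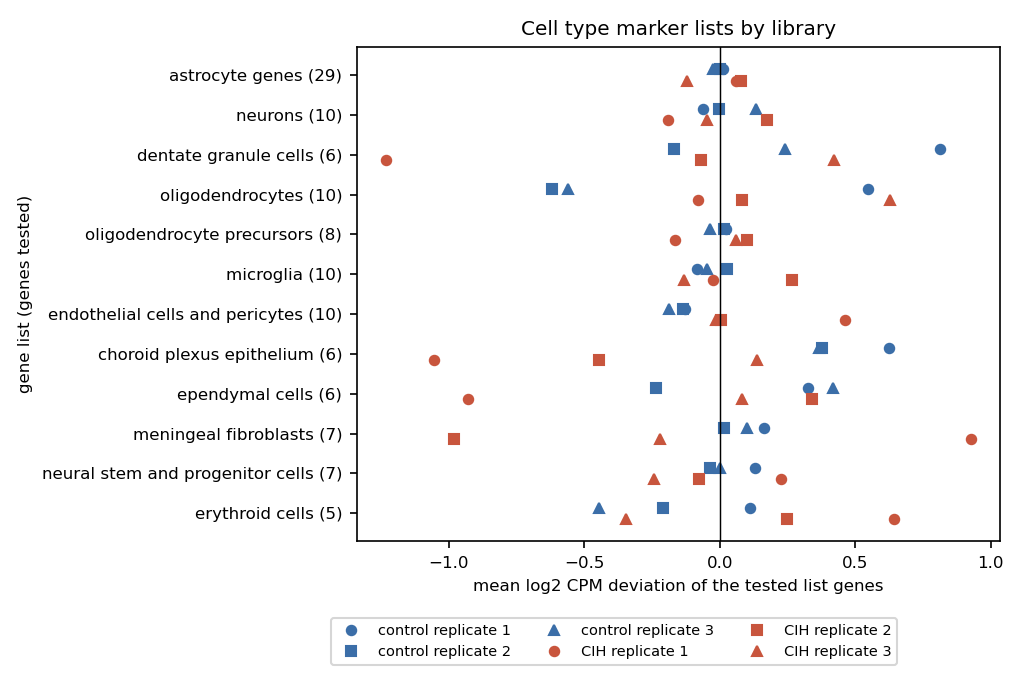
Mean log2 CPM deviation of the tested genes of each list (x axis) in each library, for the astrocyte genes and 11 marker lists, colours for group and shapes for replicate. The astrocyte genes stay between -0.12 and 0.08, while CIH replicate 1 is far to the left for dentate granule markers and to the right for meningeal markers.

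Other genes of astrocyte pathways gave the same count of calls: 0 of the tested members passed in any of the 12 lists. Of 25 other astrocyte-enriched genes, 20 were above 0 and 5 below, with a median log2 fold change of 0.14 beside 0.00 for all genes. Their mean log2 deviation was -0.03, -0.03 and -0.05 in control replicates 1 to 3. In CIH replicates 1 to 3 it was 0.04, 0.17 and -0.10, so CIH replicate 3 lay below every control. Mertk, a receptor for engulfing debris and synapses, had 39.9 ± 1.03 CPM under normoxia and 45.6 ± 2.43 CPM under CIH (SD, n = 3 each), with no overlap, as in 3.05% of all genes (log2 fold change 0.20, SE 0.09), and the thyroid hormone transporter gene Slco1c1 at 0.27 (SE 0.15). Among potassium handling and endfoot anchoring genes, 7 of 11 were above 0. The inward rectifier gene Kcnj10 stood at 0.17 (SE 0.12). No gene of either list passed edgeR's test (adjusted p = 1.00 for each).

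In the glutamate and glutamine list, 4 of 10 genes were above 0; the glutamine transporter gene Slc38a3 stood at 0.14 (SE 0.13), and its relative Slc38a5, with 1.92 ± 0.414 CPM under normoxia and 0.969 ± 0.334 CPM under CIH (SD, n = 3 each) and no overlap, as in 2.65% of all genes, at -0.99 (SE 0.34). Among genes of GABA, glycine and serine handling 6 of 11 were above 0, with the monoamine oxidase gene Maob at 0.21 (SE 0.14) and the betaine and GABA transporter gene Slc6a12 at -0.63 (SE 0.42). Slc6a12 had 0.994, 1.05 and 1.25 CPM in control and 0.953, 0.332 and 0.860 CPM in CIH, with no overlap, as in 2.65% of all genes. Slc38a5 and Slc6a12 rest on few reads, with at most 50 and 27 counts in a library. Of 10 genes around cystine uptake and glutathione 4 were above 0. Slc3a2, the heavy chain that partners Slc7a11 and Slc7a10, stood at -0.21 (SE 0.10), on the same side of 0 as both, and the cystathionine lyase gene Cth at -0.36 (SE 0.21). None passed the edgeR test.

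Of the bicarbonate, pH and sodium pump partners of Slc4a4 and Atp1b2, 1 of 9 was above 0, with a median of -0.07. Slc4a7, an electroneutral sodium bicarbonate cotransporter gene, stood at -0.34 (SE 0.28), but its libraries overlapped, at 62.1 to 99.8 CPM in control and 40.7 to 82.9 CPM in CIH, the lowest in CIH replicate 1. Other connexins and pannexins were above 0 for 8 of 10 genes, with the oligodendroglial connexin gene Gjc3 at 0.56 (SE 0.29) and the neuronal connexin gene Gjd2 at 0.52 (SE 0.25).

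Reactive genes were mixed in direction. Of 8 tested pan-reactive genes 3 were above 0 and 5 below. Steap4, a metalloreductase gene, stood at 0.894, 1.097 and 0.834 CPM in control and 0, 0.332 and 0.101 CPM in CIH (log2 fold change -2.60, SE 0.74), and Aspg had 0.906 ± 0.297 CPM under normoxia and 0.474 ± 0.082 CPM under CIH (SD, n = 3 each). In both the CIH libraries were below all controls, as in 2.65% of all genes, and both rest on few reads. Lcn2, Cxcl10 and Serpina3n, which rise in reactive astrocytes, did not pass the low-count filter, with at most 14, 9 and 32 counts in a library, and were not tested. In the list of reactive genes of neuroinflammation 6 of 9 were above 0, with the complement gene C3 at 0.39 (SE 0.22) and Fkbp5, a glucocorticoid-induced chaperone gene, at -0.26 (SE 0.24). In the list of reactive genes of ischaemia 5 of 11 were above 0, with the pentraxin gene Ptx3 at -0.72 (SE 0.28). Its CIH libraries were below all controls, as in 2.65% of all genes, and it too rests on few reads, 16 to 37 counts per library. None passed the edgeR test.

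Among 15 genes of astrocyte transcription and signalling 6 were above 0, with Id4, an inhibitor of basic helix-loop-helix factors, at 0.17 (SE 0.16) and the receptor gene Notch2 at -0.13 (SE 0.10), its CIH libraries below all controls, as in 2.65% of all genes. Among 12 genes of lipoprotein lipid supply, the partners of Apoe and Clu, 7 were above 0, with a median of 0.08. Abca1, the transporter that loads lipid onto apolipoproteins, stood at 103.9, 107.6 and 117.8 CPM in control and 126.5, 118.1 and 125.1 CPM in CIH, with no overlap, as in 3.05% of all genes, and a gap of under 1 CPM (0.17, SE 0.10), and the receptor gene Lrp8 at -0.18 (SE 0.14). By edgeR no gene of either list was called (adjusted p = 1.00 for each).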

How the data were processed

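Per the labels' protocols, TRIzol RNA was read on BGI sequencers. Tools named in the submitters' processing notes are RSEM 1.2.12, HISAT2 2.2.0 and Bowtie2 2.2.5, without roles, and the build is Rnor_6.0; for annotation and strand the sources used here say nothing. Estimated counts, TPM and FPKM were made by the authors, per the file headers. The deposited estimated counts (16.0% of values not whole) were rounded and tested with edgeR 4.0.16 in R 4.3.3: quasi-likelihood F test, TMM factors, filterByExpr, Benjamini-Hochberg adjustment over 17935 genes, threshold 0.05. SE and 95% intervals were derived from the fold change and F statistic. CPM are counts over TMM-adjusted totals; log2 CPM deviations used a prior count of 2. The deposited TPM gave levels and an alternative test, and the deposited FPKM gave implied lengths. Alternatives used DESeq2 1.42.0 and limma 3.58.1. Small RNA libraries were not used here.

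Members and gene lists were chosen with earlier results of these data known. All members are named; from each pathway list up to 2 genes of smallest p. Of the genes so named, 2 are not reported here. Library values are given for members highest in TPM, smallest in p or without overlap, and for Gfap, Aqp4, Slc1a2, Slc1a3 and Gja1. Pcx, Car4 and Car14 of the lists were not matched by symbol. Counts were simulated with these means and totals, each gene's spread taken from the fitted trend with level and not its own. Over 17679 genes, edgeR called 55% of 100 genes shifted by 1 log2 unit, 90% of 100 shifted by 2, and 4 unshifted genes. Genes more variable than the trend and shifts smaller than 1 log2 unit were not simulated. Replicate numbers did not pair the libraries. Figures used matplotlib 3.10.9.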

Additional observations from a re-analysis of the deposited data

How the results depend on the processing

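None of the 29 astrocyte genes passed under RLE normalization, no low-count filter, DESeq2, limma on log2(TPM + 1) or log2(TPM + 0.1), limma with no filter, the replicate block or any left-out library (0 in each; smallest adjusted p = 0.883). Over all genes DESeq2 called 9, leaving out 1 library gave 0 to 1 (1 without control replicate 3 and 1 without CIH replicate 2), and the replicate block gave 0. Same-numbered libraries did not deviate together (correlations of -0.222, -0.0457 and -0.176). The median log2 fold change of the astrocyte genes was 0.02 with the replicate block and ran from -0.029 to 0.099 over the left-out libraries, and the number above 0 from 14 to 21. No direction turned under another tool, filter or scaling, but 14 members turned when 1 library was left out: Gfap from -0.20 to 0.65, Vim from -0.40 to 0.39, Aqp4 from -0.18 to 0.070, Gja1 from -0.086 to 0.050, Aldh1l1 from -0.23 to 0.086, Sox9 from -0.24 to 0.089, Fgfr3 from -0.21 to 0.15, Apoe from -0.28 to 0.046, Clu from -0.045 to 0.19, Sparcl1 from -0.10 to 0.11, Atp1b2 from -0.054 to 0.25, Cbs from -0.36 to 0.029, Fabp7 from -0.35 to 0.056 and Plpp3 from -0.065 to 0.18. Emp1, a gene of the ischaemia list, also turned, from -0.12 to 0.48. Of the members, 8 turned without CIH replicate 3 (Gfap, Gja1, Aldh1l1, Cbs, Apoe, Sparcl1, Sox9 and Fgfr3), 8 without control replicate 2 (Gfap, Vim, Gja1, Apoe, Clu, Sparcl1, Sox9 and Fgfr3), 5 without CIH replicate 1 (Vim, Atp1b2, Fabp7, Plpp3 and Apoe), 2 without control replicate 1 (Aqp4 and Plpp3), 2 without control replicate 3 (Gfap and Aldh1l1) and 1 without CIH replicate 2 (Gfap). The cause was not tested. With 3 libraries a group, changes of the size seen in the most variable members, Gfap and Vim, could not be told from the spread.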
